A study of Mus musculus with 4 samples.

Results

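Growth arrest genes and cell cycle inhibitors were followed in mouse liver through 10 genes in 5 roles: the CDK inhibitors Cdkn1a and Cdkn1b, the GADD45 family (Gadd45a, Gadd45b, Gadd45g), the BTG family (Btg1, Btg2), the D-type cyclin Ccnd1 and the G-type cyclins Ccng1 and Ccng2. All probe sets whose annotated symbol is one of these genes were taken, which gave 21 of the 22626 probe sets of the array that are not Affymetrix controls. Each of the 10 genes, out of 12393 genes with a symbol, had at least 1 probe set. No filter on low values was used, and all 21 probe sets lay above the lower quartile of every array (5.08 to 5.13). The RNA came from whole liver of 4 wild-type C57/BL6 mice aged 1 month. Control livers came from 2 mice with no treatment named, and starved livers from 2 mice starved for 24 h. The labels name no transgene or other agent for either group, and give neither the sex of the mice nor the hour of collection. Their description field calls the animals injected and not injected, without saying with what, and groups were taken from the titles and the treatment field. The labels call the 2 samples of a group biological replicates.

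A cell enters the division cycle when D-type cyclins switch on their partner kinases in G1, and CDK inhibitors of the Cip/Kip type bind and block cyclin-kinase complexes. GADD45 proteins are small stress-induced proteins that bind a kinase of the p38 and JNK pathways, PCNA and mitotic kinase complexes, and BTG proteins slow growth in part by bringing the CCR4-NOT complex to messenger RNAs. The G-type cyclins differ from other cyclins: Ccng1 is a target of p53, and Ccng2 is a target of FOXO factors that is raised in resting cells. Hepatocytes of an adult liver are mostly at rest, and Ccnd1 is the cyclin that rises when they re-enter the cycle. The mice here were 1 month old, and whether their hepatocytes were at rest was not tested.

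Signals and changes are on the log2 scale, and a change is the difference between group means, starved minus control. Ccng2 was 2.06-fold higher in starved liver by its brighter probe set, Btg1, Btg2 and Gadd45b were higher by all of their probe sets, and Ccnd1 was 2.50-fold to 3.29-fold lower by its 3 probe sets. Cdkn1a, Gadd45a and Gadd45g differed as much between mice of a group as between groups, as did Gadd45b by 1450971_at. The changes of Cdkn1b and Ccng1 were 0.36 or less in size. In limma, 0 of the 21 probe sets passed an adjusted p of 0.05, against 13 of all 22626 probe sets (0.0575%). At an unadjusted p under 0.05 in limma there were 10 of the 21, against 11.5% of all probe sets. The 7 that were higher in starved liver (background 5.42%) belonged to Gadd45b, Btg1, Btg2 and Ccng2, and the 3 that were lower (background 6.04%) all belonged to Ccnd1. Probe sets annotated to 1 gene are not independent readings, and these 10 probe sets are annotated to 5 genes. The groups did not overlap in 14 of the 21, against 41.9% of all probe sets, with both starved arrays above in 10 (background 21.3%) and both below in 4 (background 20.6%). The median change of the 21 was 0.41, and that of all probe sets 0.0028.

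**Figure D1:**
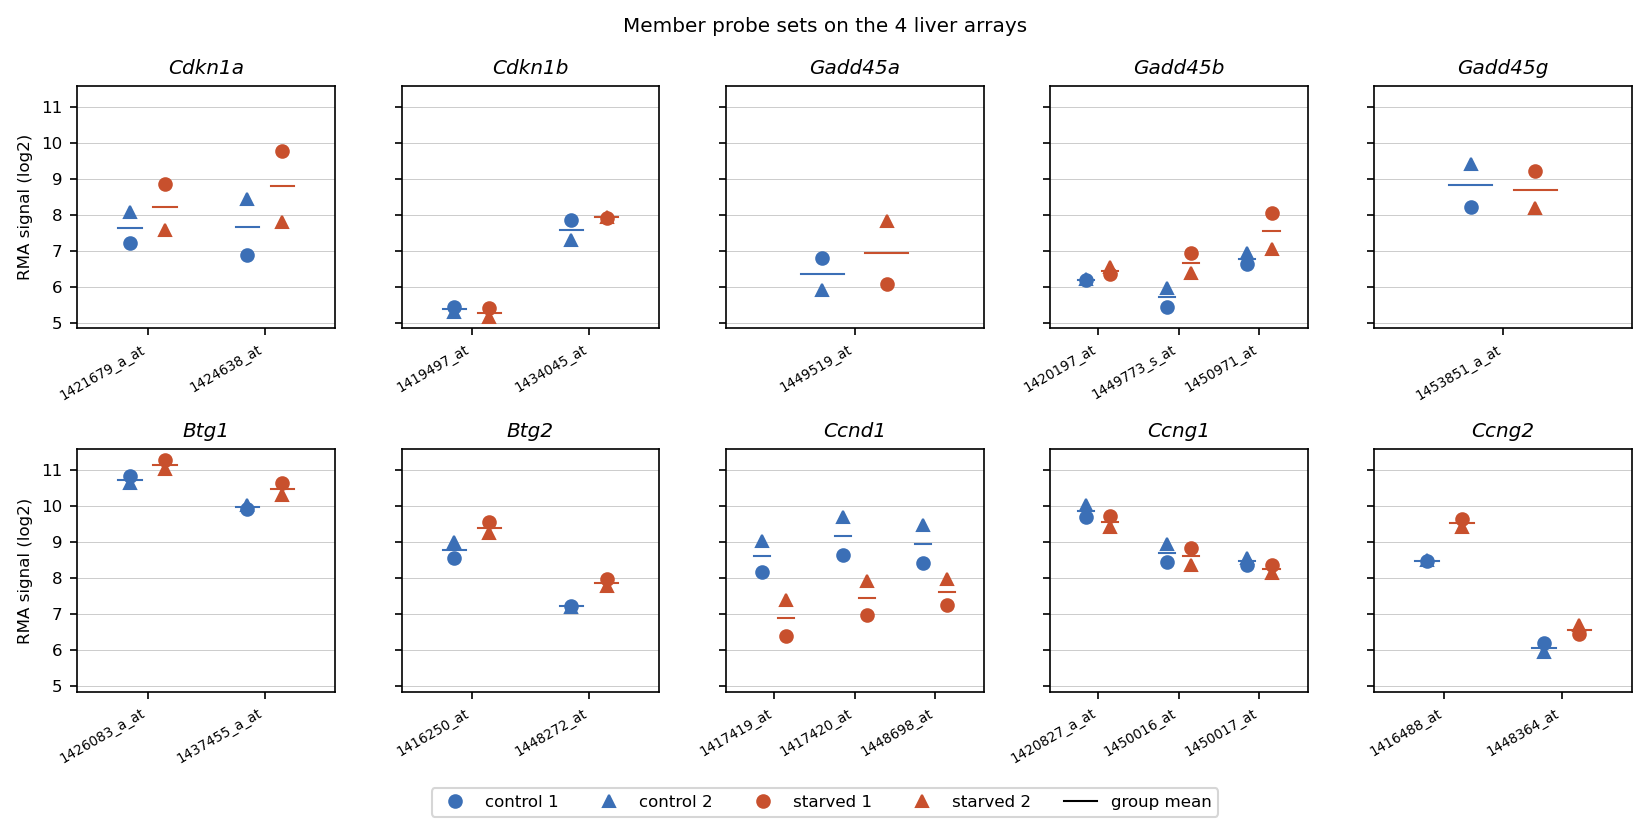
Log2 RMA signal of the 21 probe sets on each of the 4 liver arrays, in 1 panel per gene, with circles for replicate 1, triangles for replicate 2, blue for control, orange for starved and short lines for group means. The starved points of Btg1, Btg2, Gadd45b and Ccng2 lie above both control points, and those of Ccnd1 below. Those of Cdkn1a, Gadd45a and Gadd45g, and of Gadd45b by 1450971_at, lie more than 1 log2 unit apart within the starved group.

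The cyclins are given first, since they held the largest downward change and the member with the smallest p. Ccnd1, which drives G1 progression with CDK4 and CDK6, read 8.17 and 9.04 on the control arrays and 6.40 and 7.38 on the starved arrays by probe set 1417419_at. Both starved arrays were lower than both control arrays, and in each group replicate 2 was the higher one. The change was -1.72 ± 0.40 (SE; 95% interval -2.70 to -0.73), a 3.29-fold lower signal (limma, adjusted p = 0.226). By 1417420_at the signals were 8.64 and 9.69 against 6.99 and 7.92, a change of -1.72 ± 0.43 (limma, adjusted p = 0.245). By 1448698_at they were 8.40 and 9.47 against 7.26 and 7.97, a change of -1.32 ± 0.39 (limma, adjusted p = 0.307). The 3 probe sets gave the same order of the 4 arrays. The control mice differed by about as much as the starved mice, and the gap between the nearest control and starved arrays was 0.79, 0.72 and 0.43 in the 3 probe sets.

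Control 2 carried the highest acute phase signals. The mean over 23 probe sets of acute phase genes was 11.58 on that array and 10.18 to 10.39 on the other 3. Without control 2 the Ccnd1 changes were -1.28, -1.19 and -0.79, and without control 1 they were -2.15, -2.24 and -1.85, with adjusted p-values of 0.114 to 0.502 in limma over these fits. The part of the acute phase difference in the Ccnd1 change was not tested beyond these values.

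Ccng2, a cyclin that goes with cell cycle exit, had the smallest p of all members. By 1416488_at it read 8.47 and 8.49 in control liver and 9.65 and 9.40 in starved liver. The control arrays were nearly equal and both starved arrays lay at least 0.91 above them. The change was 1.04 ± 0.13 (SE; 95% interval 0.72 to 1.37), with an adjusted p = 0.0814 in limma, so it missed the threshold of 0.05 and was 1 of 97 probe sets (0.429%) under an adjusted p of 0.1. It ranged from 0.92 to 1.17 when each array in turn was left out. The dimmer probe set 1448364_at read 6.20 and 5.93 against 6.44 and 6.68. Its groups did not overlap either, and its change of 0.49 ± 0.15 was smaller (95% interval 0.12 to 0.87; limma, adjusted p = 0.325).

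Ccng1, the p53-responsive relative of Ccng2, did not share this pattern. By 1420827_a_at it read 9.68 and 10.02 in control and 9.71 and 9.41 in starved liver, a change of -0.29 ± 0.17. By 1450016_at and 1450017_at the changes were -0.098 ± 0.23 and -0.21 ± 0.14. The groups overlapped in the first 2 of these probe sets and were 0.017 apart in the last. The 95% intervals ran from -0.71 to 0.14, from -0.66 to 0.47 and from -0.54 to 0.13, so changes the size of that of the brighter Ccng2 probe set lie outside all 3 (limma, adjusted p = 0.598 to 0.934). With 1 array left out the changes ran from -0.45 to -0.12, from -0.35 to 0.15 and from -0.31 to -0.10, in the same order. The difference between the 2 genes was not tested in itself.

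The BTG genes were higher in starved liver by small amounts in all 4 probe sets. Btg2, an antiproliferative gene induced by growth factors and by p53, read 7.23 and 7.20 in control and 7.97 and 7.78 in starved liver by 1448272_at. The starved arrays were at least 0.55 above the controls, and the change was 0.66 ± 0.12 (SE; 95% interval 0.35 to 0.97; limma, adjusted p = 0.153). By 1416250_at it read 8.55 and 8.99 against 9.55 and 9.24, a change of 0.62 ± 0.19 (limma, adjusted p = 0.328), which was 0.40 without control 1. Btg1, a gene of resting cells that falls when they divide, read 10.83 and 10.63 against 11.27 and 11.01 by 1426083_a_at, a change of 0.41 ± 0.15 (limma, adjusted p = 0.374). By 1437455_a_at it read 9.91 and 10.03 against 10.64 and 10.31, a change of 0.51 ± 0.15 (limma, adjusted p = 0.305). Both BTG genes were higher on starved 1 than on starved 2 in every probe set, and no starved array fell to the level of a control array.

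**Figure D2:**
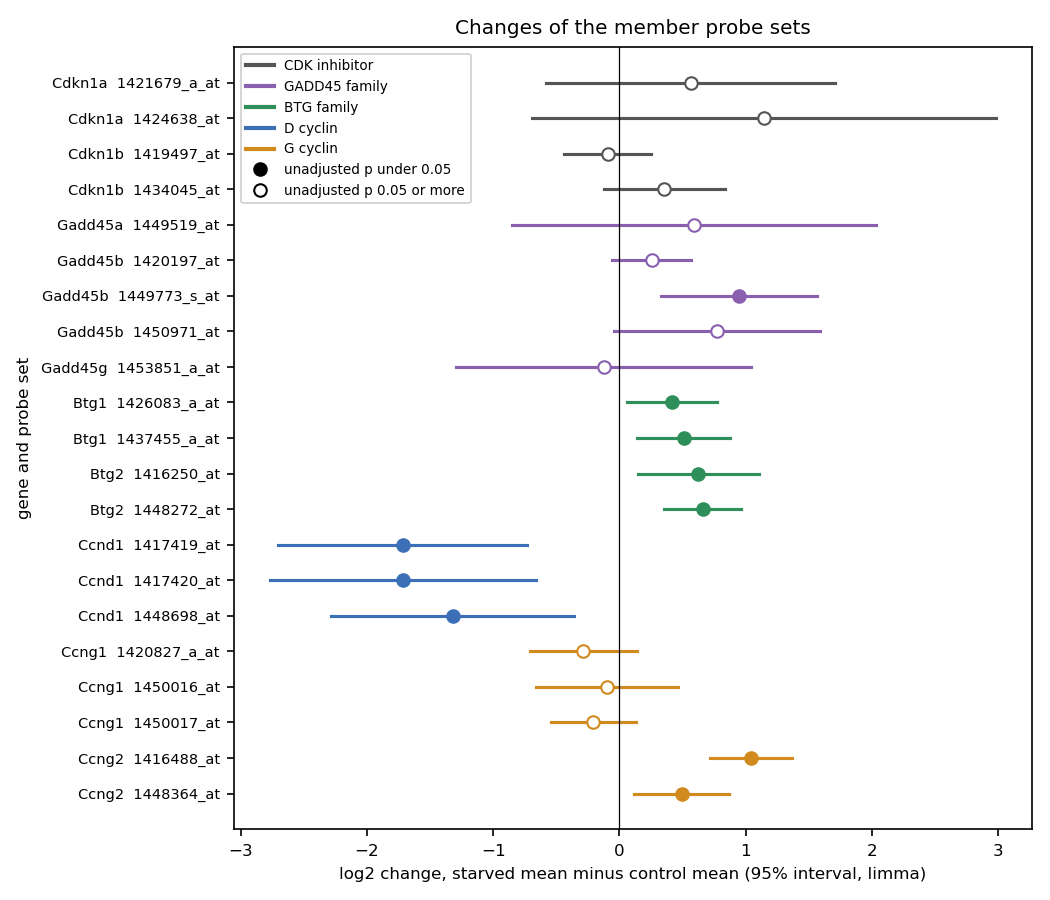
Log2 change (starved minus control) of the 21 probe sets with its 95% interval from limma, coloured by role. Filled points have an unadjusted p under 0.05, and they are the 3 Ccnd1, 4 BTG, 2 Ccng2 and 1 of the 3 Gadd45b probe sets.

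Of the GADD45 family, Gadd45b was higher in starved liver by its 3 probe sets, by differing amounts. This gene, induced by cytokines and by stress in liver, read 5.45 and 5.97 in control and 6.93 and 6.38 in starved liver by 1449773_s_at. The groups did not overlap, and the change was 0.95 ± 0.25 (SE; 95% interval 0.33 to 1.56; limma, adjusted p = 0.265). By 1450971_at it read 6.62 and 6.93 against 8.05 and 7.04, a change of 0.77 ± 0.33, which was 0.26 without starved 1 (limma, adjusted p = 0.452 with all arrays). By 1420197_at it read 6.18 and 6.21 against 6.34 and 6.55, a change of 0.25 ± 0.13, which was 0.15 without starved 2 (limma, adjusted p = 0.515 with all arrays). The first 2 probe sets were highest on starved 1 and the last on starved 2. The probe set ending in _s_at may read related transcripts.

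Gadd45a and Gadd45g, each read by 1 probe set, had groups that overlapped. Gadd45a, a p53 and stress target, read 6.79 and 5.91 in control and 6.07 and 7.82 in starved liver. It was highest on starved 2, and the change of 0.59 ± 0.58 turned to -0.28 without that array. Gadd45g, the family member known from cytokine responses, read 8.22 and 9.41 in control and 9.20 and 8.17 in starved liver. Each group held 1 high and 1 low array, and the change was -0.13 ± 0.47, or 0.47 without control 2. The 95% intervals were -0.85 to 2.03 and -1.29 to 1.04, so an increase of 2-fold, a log2 change of 1, and no change lie within both (limma, adjusted p = 0.784 and 0.966).

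Of the 4 CDK inhibitor probe sets, 0 had an unadjusted p under 0.05 in limma, against 11.5% of all probe sets. The groups did not overlap in 1 of the 4, against 41.9% of all. Cdkn1a, which encodes p21, read 6.87 and 8.42 in control and 9.78 and 7.80 in starved liver by 1424638_at. Starved 1 was the highest and control 1 the lowest, while control 2 lay above starved 2. The change was 1.15 ± 0.74 (SE; 95% interval -0.69 to 2.98; limma, adjusted p = 0.628), and it was 1.92 without control 2 and 0.16 without starved 1. By 1421679_a_at the same order of arrays was seen, with 7.21 and 8.07 against 8.84 and 7.56, and a change of 0.56 ± 0.47 (limma, adjusted p = 0.724) that was -0.079 without starved 1. Actin probe sets at the 3′ and 5′ end of the transcript, whose gap widens with RNA breakdown, differed by 2.06 on starved 1 and by 1.76 to 1.85 on the other arrays. For Gapdh the gap was 0.864 on starved 1 and 0.482 to 0.646 on the other arrays. The part of these gaps in the signals of Cdkn1a or of any other member on starved 1 was not tested.

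Cdkn1b, which encodes p27, a CDK inhibitor of resting cells that FOXO factors can induce, did not pass the test by either probe set. By 1434045_at it read 7.84 and 7.30 in control and 7.91 and 7.94 in starved liver. The starved arrays were both above, by as little as 0.070, and the change was 0.36 ± 0.19 (95% interval -0.12 to 0.83; limma, adjusted p = 0.554). It rested on the control arrays, at 0.63 without control 1 and 0.086 without control 2. By 1419497_at it read 5.45 and 5.29 against 5.40 and 5.15, a change of -0.092 ± 0.14 with overlapping groups (limma, adjusted p = 0.878).

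The promoters of the 4 genes that were higher in starved liver at an unadjusted p under 0.05 are shown because all of their probe sets were higher. Each line gives the 250 bases that end just before the start site, 5′ to 3′ on the gene's strand, from the RefSeq promoter table of build GRCm38.p6, which matched 9 of the 10 genes (10 windows, 2 of them for Cdkn1a). Capitals mark 5 short motifs searched on both strands: the FOXO core GTAAACA, the E-box CACGTG, the GC box GGGCGG, the TATA box TATAAA and the CRE half-site TGACG, which cyclic AMP responsive factors bind.
Ccng2 (chr5:93267323-93267572, plus strand): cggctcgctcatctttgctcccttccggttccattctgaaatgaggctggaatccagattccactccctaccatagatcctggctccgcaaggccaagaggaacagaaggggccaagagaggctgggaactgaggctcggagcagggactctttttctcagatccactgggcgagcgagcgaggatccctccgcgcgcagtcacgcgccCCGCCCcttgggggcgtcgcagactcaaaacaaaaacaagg
Btg1 (chr10:96616751-96617000, plus strand): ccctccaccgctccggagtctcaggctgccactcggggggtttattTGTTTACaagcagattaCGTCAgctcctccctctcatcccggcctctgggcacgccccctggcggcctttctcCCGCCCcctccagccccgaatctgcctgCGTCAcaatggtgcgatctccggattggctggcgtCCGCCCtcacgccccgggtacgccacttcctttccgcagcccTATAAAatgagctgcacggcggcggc
Btg2 (chr1:134079156-134079405, minus strand): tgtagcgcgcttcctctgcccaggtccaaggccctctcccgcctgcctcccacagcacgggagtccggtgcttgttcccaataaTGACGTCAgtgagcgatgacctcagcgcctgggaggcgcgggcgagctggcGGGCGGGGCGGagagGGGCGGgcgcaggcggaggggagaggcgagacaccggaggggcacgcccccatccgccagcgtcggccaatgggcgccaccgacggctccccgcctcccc
Gadd45b (chr10:80929841-80930090, plus strand): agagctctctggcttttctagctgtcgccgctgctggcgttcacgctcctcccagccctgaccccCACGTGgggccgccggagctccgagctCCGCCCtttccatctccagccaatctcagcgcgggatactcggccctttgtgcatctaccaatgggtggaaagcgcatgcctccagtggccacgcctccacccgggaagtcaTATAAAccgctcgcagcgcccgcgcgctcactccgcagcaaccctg

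The letters differed between these promoters. The FOXO core was found in 1 of the 10 member windows of 300 bases (250 before and 50 after the start site), that of Btg1, where it begins 204 bases upstream of the start site, and 3.65% of all 32851 such windows hold it. Btg1 also held 2 CRE half-sites, 187 and 103 bases upstream, and a TATA box 26 bases upstream. In Btg2, CRE half-sites on opposite strands began 166 and 163 bases upstream and overlap into 1 palindrome, and of its 3 GC boxes the first 2 share a base. CRE half-sites stood in 3 of the 10 windows, against 20.8% of all. Gadd45b held an E-box 185 bases and a TATA box 46 bases upstream, motifs found in 2 and 3 of the 10 windows, against 7.15% and 13.6% of all. The Ccng2 window held a GC box 41 bases upstream and none of the other 4 motifs. GC boxes were in 7 of the 10 windows, against 35.7% of all. No match of one motif overlapped a match of another in the member windows. These matches describe the letters and show no binding.

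Other genes of the same pathways were read from lists. At an unadjusted p under 0.05 in limma, 5.42% of all probe sets were higher and 6.04% lower, the background for each list count below. Of 5 other CDK inhibitors, 0 passed an adjusted p of 0.05 in limma and 2 were higher at an unadjusted p under 0.05. Cdkn1c, the imprinted inhibitor p57, read 5.90 and 5.61 in control and 6.40 and 6.26 in starved liver, a change of 0.58 ± 0.15 (SE; limma, adjusted p = 0.249). Cdkn2d, an inhibitor of CDK4 and CDK6, had a change of 0.42 ± 0.15 (limma, adjusted p = 0.375) and its relative Cdkn2c of 0.31 ± 0.17 (limma, adjusted p = 0.547). Cdkn2a and Cdkn2b, tumour suppressors of the INK4 locus, had changes of -0.042 and -0.051 at signals under the lower quartile of every array.

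The relatives of Ccnd1 did not all share its direction. Ccnd2 had 7 probe sets, and in 2 of them it was lower at an unadjusted p under 0.05. By 1434745_at it read 7.76 and 7.12 against 6.73 and 6.74, a change of -0.70 ± 0.22 (limma, adjusted p = 0.329), and by 1430127_a_at it had a change of -0.49 ± 0.14 (limma, adjusted p = 0.300). In 1430127_a_at both starved arrays, at 4.94 and 4.86, read under the lower quartile. Over the remaining Ccnd2 probe sets the changes ran from -0.46 to 0.059. Ccnd3 read 8.01 and 7.98 against 8.34 and 8.16, a change of 0.26 ± 0.12 (limma, adjusted p = 0.501). Over the whole list of other cyclins, G1 kinases and pocket proteins, 2 of 23 probe sets were higher and 3 lower at an unadjusted p under 0.05, 0 passed the adjusted test in limma, and the median change was -0.042. Ccni, a cyclin known from post-mitotic cells, gave both of the higher ones, with changes of 0.46 and 0.35, and Rbl1, a pocket protein that represses E2F genes, was the third lower one at -0.49. That Rbl1 probe set read 4.83 on starved 1, under the lower quartile of the array. By 1425166_at, under the lower quartile of every array, Rbl1 had a change of -0.19 with overlapping groups.

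Genes for the binding partners of BTG and GADD45 proteins showed small differences in most probe sets. Of 24 probe sets for TOB genes, Btg4 and CCR4-NOT subunits, 0 were higher and 3 were lower at an unadjusted p under 0.05 in limma, and 0 passed the adjusted test. Those 3 read the deadenylases Cnot8 (-0.48 and -0.48) and Cnot7 (-0.43 by 1460665_a_at), which BTG proteins contact. By its brighter probe sets 1423641_s_at and 1430519_a_at, Cnot7 had changes of -0.16 and -0.15 with overlapping groups. Tob1 and Tob2, relatives of the BTG genes, had changes of -0.28 for the single Tob1 probe set and of -0.36 to -0.045 over the 4 Tob2 probe sets. Among 15 probe sets of GADD45 partner genes, Map3k4, the kinase that GADD45 proteins activate, had a change of -0.40 in one of its 2 probe sets and of -0.12 in the other. The probe sets of the stress kinases Mapk14 and Mapk8 did not agree in sign. Changes ran from -0.22 to 0.29 over the 4 Mapk14 and from -0.31 to 0.35 over the 3 Mapk8 probe sets. The -0.22 was from Mapk14 1451927_a_at, under the lower quartile of every array. The -0.31 was from Mapk8 1420931_at, with group means of 5.29 in control and 4.98 in starved liver. The other probe sets of both genes had positive changes. In limma, 2 of the 15 were higher and 1 lower at an unadjusted p under 0.05 and 0 passed the adjusted test.

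The p53 pathway list, which shares its regulator with Cdkn1a, Ccng1, Btg2 and Gadd45a, had a median change of -0.0031 over 30 probe sets. At an unadjusted p under 0.05 in limma, 2 were higher (background 5.42%) and 0 lower (background 6.04%), and 0 passed the adjusted test. Sesn2 is a stress gene that restrains mTORC1. By 1425139_at it read 6.49 and 6.64 against 7.46 and 7.19, a change of 0.76 ± 0.14 (limma, adjusted p = 0.153). Its brighter probe set 1451599_at had a change of 0.19 ± 0.12 (limma, adjusted p = 0.624). Ei24, a p53-induced gene with a role in autophagy, had a change of 0.57 ± 0.18 (limma, adjusted p = 0.337). Of 34 probe sets of FOXO factors and targets, 5 were higher and 2 lower at an unadjusted p under 0.05, with a median of 0.075 and 0 past the adjusted test in limma. Foxo1 had a change of 0.46 ± 0.12 by its probe set of smallest p, and Pdk4, the kinase that shuts pyruvate dehydrogenase, of 0.93 ± 0.18, while G6pc, glucose-6-phosphatase, had a change of -1.15 ± 0.23 (limma, adjusted p = 0.257, 0.168 and 0.176).

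Genes of DNA replication and mitosis were measured for comparison with Ccnd1. Of 51 probe sets, 0 were higher (background 5.42%) and 4 lower (background 6.04%) at an unadjusted p under 0.05 in limma. The adjusted test was passed by 0, and the median change was -0.098. The helicase subunits Mcm4 and Mcm3 had changes of -0.84 ± 0.12 and -0.47 ± 0.11 by their probe sets of smallest p, and Rrm1, a ribonucleotide reductase subunit, of -0.30 ± 0.12 (limma, adjusted p = 0.106, 0.236 and 0.416). By the brighter 1416214_at, Mcm4 had a smaller change of -0.33. Mcm3 had changes of -0.26 by 1449705_x_at, -0.33 by 1426652_at and -0.24 by 1420028_s_at. The groups overlapped in 1426652_at and 1420028_s_at. Signals of 20 of the 51 probe sets lay under the lower quartile of every array, and these are given as low signals, not as absence.

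**Figure D3:**
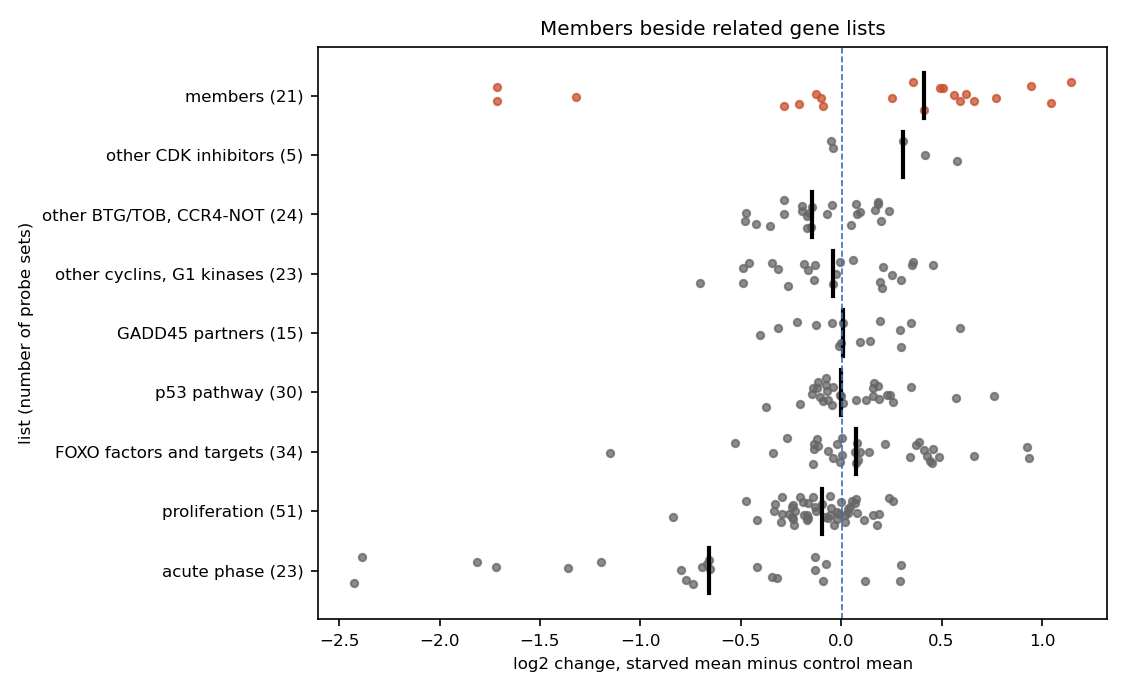
Log2 change (starved minus control) of each probe set in the members and in 8 related lists, with black bars at list medians, a dashed line at the median of all probe sets and the number of probe sets in brackets. The members have a median of 0.41 with the 3 Ccnd1 probe sets far to the left, most other lists centre near 0, and the acute phase list has a median of -0.66.

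Ccnd1 by 1417419_at had the largest change of the members. The 3 probe sets of other genes nearest to it over the 4 arrays, by root mean square distance after centring each on its own mean, were those of Steap4 (0.12), a metalloreductase of the acute phase list, Cyp51 (0.19) and Rdh11 (0.23), enzymes of sterol and retinol metabolism. Steap4 read 10.92 and 11.68 in control and 8.92 and 10.23 in starved liver. With 4 arrays such likeness is a description only.

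The tissue matched its label, with hepatocyte markers at a mean signal of 14.59 to 14.71 on every array. In whole liver, fewer cells of a type and less RNA per cell cannot be told apart. Marker lists of 8 other cell types had mean signals that differed between group means by 0.30 or less. Single markers differed more, all with adjusted p-values above 0.05 in limma. At an unadjusted p under 0.05, 2 of 11 endothelial (both Lyve1), 2 of 5 cholangiocyte (both Sox9), 2 of 5 erythroid (both Slc4a1), 1 of 12 macrophage (Marco) and 1 of 4 B cell probe sets (Cd79b) were higher. By the same measure 1 of 9 stellate cell probe sets (Col3a1) and 1 of 11 hepatocyte probe sets (Fgb) were lower. T and NK cell and neutrophil lists had 0 of 6 each by that limma count. By sign alone, 4 endothelial probe sets were higher and 7 lower, with a median change of -0.069. Of the macrophage probe sets 3 were higher and 9 lower, with a median of -0.088. The erythroid list had 3 higher and 2 lower, with Alas2 at -0.27, and Slc4a1 1434502_x_at lay under the lower quartile of every array. All 5 cholangiocyte and all 4 B cell probe sets were higher. The endothelial list mean ran from 6.91 to 7.33 in control and from 7.23 to 7.42 in starved liver, and the stellate cell mean from 6.59 to 7.06 and from 6.59 to 6.72. Of these markers, 4 of 9 stellate cell, 3 of 6 T and NK cell, 3 of 5 erythroid and 2 of 11 endothelial probe sets lay under the lower quartile of every array. The part of these cell types in the changes of Ccnd1, Ccng2, Btg1, Btg2 and Gadd45b was not tested.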

How the data were processed

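Liver RNA of 4 mice was measured on Affymetrix arrays. The values deposited by the authors are log2 signals per probe set, and the submitters' processing notes name RMA and affy. Tool versions and the set of arrays normalized together are not given in the sources. RMA's quantile normalization hides a shift common to all transcripts.

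Of 22690 probe sets, 64 Affymetrix controls were left out. In the platform annotation 20380 probe sets had 1 symbol, 691 several and 1555 none. Symbols were updated through Entrez identifiers (20351 matched). No probe set with several symbols named a member. The group difference was fitted in limma 3.58.1 (R 4.3.3; lmFit, then eBayes), two-sided and without covariates, with Benjamini-Hochberg adjustment over all 22626 probe sets. The total degrees of freedom were 5.83 and the median standard error was 0.13. The number of arrays limits the precision, and an exact permutation test was not used because 2 against 2 arrays cannot reach 0.05. Arrays were simulated from this comparison, with 22626 probe sets, 200 of them changed by 1 to 4 log2 units. On these arrays limma recovered 52.9% of changes of 1 log2 unit and 96.9% of changes of 2. Spreads were drawn from the fit over all probe sets, while the 21 member probe sets had a median standard error of 0.19. The 200 planted changes also exceed the 13 calls made here, and more calls ease the adjusted threshold. These shares are therefore not the recovery expected for the members.

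The rule named all members, at most 3 genes per related list with the smallest p, and close relatives. The members, lists and alternatives were chosen with earlier results of these data known. Motif positions were counted from the start site.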

Additional observations from a re-analysis of the deposited data

How the results depend on the processing

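The count of 0 members past the adjusted test held in all 14 alternative fits, where the smallest adjusted p of a member was 0.0611 in limma. At an adjusted p of 0.1 in limma, 1 member probe set, Ccng2 1416488_at, was past the threshold, and 97 of all probe sets. Over all probe sets the 13 calls became 8 with 1 probe set per gene, 23 without _x_at and _s_at probe sets, 44 with robust eBayes, 59 with trend and robust settings, and 0 with the replicate block, and 2 to 57 with 1 array left out (limma). The cause was not tested. Same-numbered arrays deviated together with a correlation of only 0.038, so the numbers are not taken to pair the mice; under the block the 21 member probe sets kept a count of 10 at an unadjusted p under 0.05.

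That count of 10 was 7 without starved 1, 12 without starved 2, 9 without control 1 and 9 without control 2, and the 14 probe sets with groups apart became 16 to 19, fewer arrays making overlap rarer. Counted by gene, the 10 became 4 with 1 probe set per gene and 5 with the mean of all probe sets, and the 14 became 6 and 5. These counts at an unadjusted p, and the left-out arrays for groups apart, were added after the data were seen.

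Of 281 member changes under alternatives, 8 turned sign, in 5 probe sets with overlapping groups: Cdkn1a 1421679_a_at to -0.079 without starved 1. Cdkn1b 1419497_at turned to 0.13 with the mean of both probe sets and to 0.033 without starved 2, Gadd45a to -0.28 without starved 2, Gadd45g to 0.47 without control 2 and 0.39 without starved 2, and Ccng1 1450016_at to 0.15 and 0.14 without the same arrays. With 1 array left out these changes ran from -0.079 to 1.20, from -0.22 to 0.033, from -0.28 to 1.47, from -0.72 to 0.47 and from -0.35 to 0.15, in the same order.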

Other observations

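Some genes of the related lists, chosen after their values were seen, differed between the starved mice as Cdkn1a did. Ddit4, an mTORC1 inhibitor induced by stress and glucocorticoids, read 10.70 on starved 1 and 7.96 on starved 2, with 8.90 and 9.78 on the control arrays. Map2k6, a kinase that activates p38, read 7.98 on starved 1 and 6.36 on starved 2, with 6.87 and 6.30 on the control arrays. Rrm2, a ribonucleotide reductase subunit, read 7.20 on starved 1 and 5.64 on starved 2 by 1448226_at, with 6.76 and 6.46 on the control arrays. By 1416120_at, Rrm2 read 5.59 and 5.45 on the starved arrays and 5.78 and 5.74 on the control arrays, so both starved arrays lay below. For the other probe sets named here, as for Cdkn1a, the starved mice stood on either side of at least 1 control mouse.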
